A study of Mus musculus with 8 samples.

Results

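The genes of Wnt signalling were examined in sorted stromal populations of mouse bone marrow. The set comprised 46 of the 49315 genes in the deposited counts. It held 13 ligands, 13 receptors of the Frizzled and LRP families, 11 secreted antagonists, 6 genes of the R-spondin axis and 3 targets of the pathway, and each of the 46 was found by its symbol. RNA-seq was available for clusters 1 to 7, which were populations sorted from crushed and collagenase-treated bone, and for 1 input library of bone marrow cells, with 1 library each. The sorted libraries are abbreviated as C1 to C7 where many values are listed. All libraries came from wild type mice, whose strain was C57BL/6J in the labels and C57BL/6JJcl in the Methods and whose age was 6 weeks in the labels and 6 to 12 weeks in the Methods. The Methods list antibodies to CD31, CD45 and Ter119, whose positive cells were removed, and to Sca-1, CD140a, CD24, CD39 and CD54, and the study also names Ly-6C as a sort marker, whereas the extraction text in the labels describes RNA of whole crushed marrow. The preparation of the input cells and the number of mice behind a library are not given in the sources used here.

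Wnt ligands are secreted lipid-modified proteins that bind Frizzled receptors, and together with the co-receptors LRP5 and LRP6 they keep beta-catenin from being degraded, so that it can act with TCF and LEF factors on target genes. Secreted antagonists act at different points, since sFRP proteins, Frzb and Wif1 bind the ligands, Dkk1 and sclerostin block LRP5 and LRP6, and Notum removes the lipid of the ligands, while R-spondins raise signalling through the receptors Lgr4, Lgr5 and Lgr6. In bone, Wnt signalling is known for promoting osteoblast formation and for being held back by sclerostin from osteocytes.

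Levels are given as RPKM, the number of counted reads per kilobase of exon, scaled by the reads counted on all genes of the library, so that genes of different lengths can be compared. The total count was 24205863 in C1, 25349917 in C2, 27102715 in C3, 32549319 in C4, 12833648 in C5, 31669132 in C6, 33238133 in C7 and 20162876 in the input. With 1 library per population, no test of a difference between populations was possible, and the intervals below cover counting error only. Fewer cells of a type and less RNA per cell cannot be told apart in these bulk libraries. The composition of the libraries shifts every RPKM value. In cluster 5, 34.8% of the counts lay on Rn18s-rs5, Lars2 and mmu-mir-689-2, against 10.4% in cluster 2 and at most 1.91% in the other sorted libraries. Scaling by TMM, which sets libraries by the middle of their genes, moved the log2 level of all genes by 0.31 in C5, 0.26 in C6, -0.26 in C1 and -0.16 in C7, and by -0.10, -0.02 and -0.03 in clusters 2, 3 and 4. Gene coordinates are those of the deposited counts, on GRCm38. With TMM factors over all 8 libraries, the level of the input moved by -0.68 on the log2 scale. Where TMM changed the highest sorted library of a member, or a lowest one named here, this is said beside it. Counting error is judged by total count, and TMM is named where it moved a pair described as within that error beyond it.

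The libraries were checked against markers of stromal and other cells. The collagen gene Col1a1 was high in all sorted libraries, from 1962 in cluster 4 to 15952 in cluster 6, and the mesenchymal receptor gene Pdgfra ranged from 4.37 in cluster 2 to 28.1 in cluster 1 by total count, whereas with TMM it was highest in cluster 7 at 23.7, against 23.4 in cluster 1. Markers of blood cells were present in them although CD45 positive cells had been removed. All 6 neutrophil markers passed RPKM 2 in a sorted library, and their most abundant gene S100a9 reached 4834 in cluster 3, its lowest sorted library, and 11033 in cluster 5. Their summed RPKM was 12702 in C1, 14235 in C2, 9522 in C3, 15109.9 in C4, 22373 in C5, 13602 in C6, 25949 in C7 and 38783 in the input. Of 6 T cell markers, 0 passed RPKM 2 in a sorted library.

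Of the 46 genes, 33 had RPKM above 2 in at least 1 sorted library, which was the case for 25.1% of all genes. They were 9 ligands, 7 receptors, 10 antagonists, all 6 genes of the R-spondin axis and 1 target. The highest of the 7 sorted libraries exceeded the lowest more than 2-fold in RPKM + 1 for 33 of the 33, against 70.6% of the 12360 genes above RPKM 2. The median difference of highest and lowest library was 2.51 on the log2(RPKM + 1) scale for the 33 genes and 1.26 for the 12360. Passing RPKM 2 through a single high library favours genes that differ, so these counts describe the genes that passed and not the whole set.

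**Figure D1:**
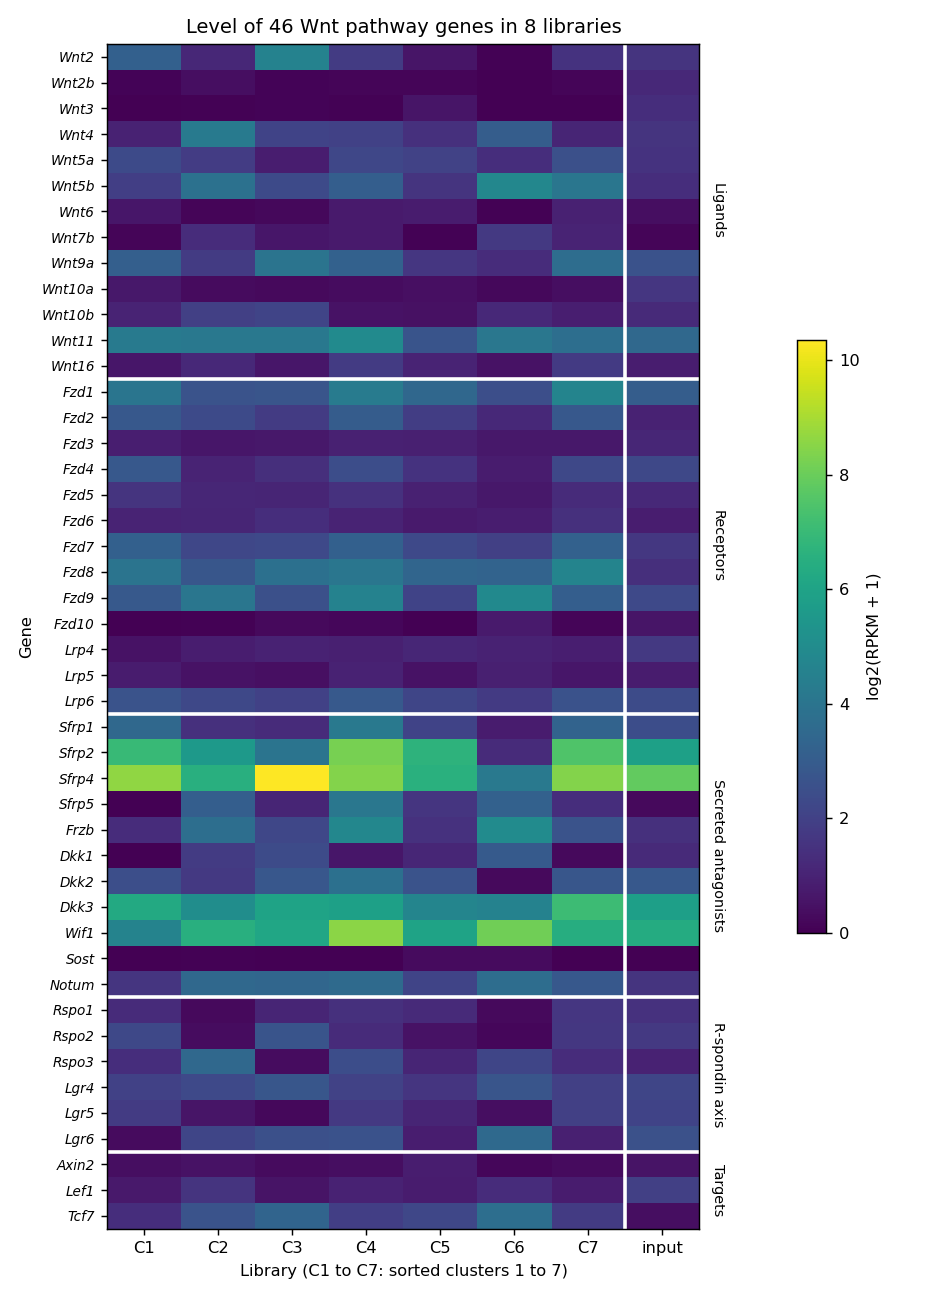
Level of the 46 genes (rows, grouped by role) in the 7 sorted libraries and the input (columns), coloured by log2(RPKM + 1), with 1 library each. Sfrp4, Sfrp2, Wif1 and Dkk3 are the brightest rows, and Sfrp4 in cluster 3 is the brightest cell at RPKM 1308.

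The secreted antagonists held most of the RNA of the set, and their most abundant gene differed by population. Their summed RPKM was 637 in C1, 298 in C2, 1482 in C3, 1156 in C4, 303 in C5, 378 in C6, 776 in C7 and 445 in the input. It was highest in cluster 3 and lowest in cluster 2 with TMM as well. The top gene was Sfrp4 in clusters 1, 3 and 7, Wif1 in clusters 4 and 6, and Sfrp2 in cluster 5. In cluster 2, Wif1 at 91.1 and Sfrp4 at 91.0 did not differ beyond counting error. Sfrp4 gave 88.3% of the sum in cluster 3, and Wif1 gave 73.5% in cluster 6. The ligands summed to far less, 44.6 in C1, 61.0 in C2, 67.6 in C3, 59.2 in C4, 17.9 in C5, 57.7 in C6, 53.2 in C7 and 30.2 in the input. The ligand sum was highest in cluster 3 by total count and in cluster 6 with TMM, at 69.1 against 66.5. The receptor sum was 67.5 in C1, 43.5 in C2, 39.3 in C3, 89.9 in C4, 38.4 in C5, 53.9 in C6, 85.2 in C7 and 30.7 in the input, highest in cluster 4 under both scalings.

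Among the ligands, Wnt2, Wnt9a and Wnt10b were highest in cluster 3, Wnt4 in cluster 2, Wnt5b and Wnt7b in cluster 6, Wnt11 and Wnt16 in cluster 4 and Wnt5a in cluster 7. The gene Wnt2 (ENSMUSG00000010797, chr6:17988940-18030585, minus strand) encodes a ligand of the canonical branch, which acts through beta-catenin. Its RPKM was 7.93 in C1, 1.24 in C2, 23.1 in C3, 2.48 in C4, 0.518 in C5, 0.0420 in C6, 1.85 in C7 and 1.94 in the input. Cluster 3 stood above cluster 1, the next library, by 2.91-fold (95% exact interval 2.61 to 3.25), and cluster 6 held 3 reads of it. The gene Wnt4 (ENSMUSG00000036856, chr4:137277489-137299726, plus strand) encodes a ligand that can act on both branches. Its RPKM was 0.975 in C1, 18.5 in C2, 3.26 in C3, 3.003 in C4, 1.67 in C5, 7.39 in C6, 1.10 in C7 and 1.90 in the input. Clusters 2 and 6 were the high libraries, the first exceeding the second by 2.50-fold (95% exact interval 2.31 to 2.70), and the difference of clusters 3 and 4 was within counting error.

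The gene Wnt5b (ENSMUSG00000030170, chr6:119432531-119544347, minus strand), which encodes a noncanonical ligand known from growth plate cartilage, had RPKM 2.77 in C1, 13.4 in C2, 4.02 in C3, 7.501 in C4, 1.94 in C5, 26.8 in C6, 15.7 in C7 and 1.57 in the input. Clusters 6, 7 and 2 were high, and cluster 6 exceeded cluster 7 by 1.70-fold (95% exact interval 1.59 to 1.82). Its lowest library was cluster 5 by total count and cluster 1 with TMM. For Wnt9a (ENSMUSG00000000126, chr11:59306928-59333552, plus strand), a ligand with a known role in joints, RPKM was 7.89 in C1, 2.51 in C2, 15.0 in C3, 8.20 in C4, 2.08 in C5, 1.48 in C6, 11.9 in C7 and 5.18 in the input. Clusters 3 and 7 were the highest, at a ratio of 1.25-fold (95% exact interval 1.16 to 1.35), and cluster 6 was the lowest. Clusters 4 and 1 did not differ beyond counting error by total count, whereas with TMM they had 8.02 and 6.59, at a ratio of 1.22 (1.098 to 1.35).

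The remaining ligands above RPKM 2 varied less or were rarer. Wnt11, a noncanonical ligand, was above 5 in every library, from 5.37 in cluster 5 to 29.8 in cluster 4, and clusters 2, 3 and 6 lay between 16.2 and 16.6 by total count, with neighbours within counting error. With TMM they had 15.4, 16.3 and 19.4, and cluster 6 was the second highest library. Wnt5a, the best known noncanonical ligand, ranged from 0.769 in cluster 3 to 4.69 in cluster 7. Wnt7b, a ligand of bone-forming cells, ranged from 0.0353 in cluster 5 to 2.25 in cluster 6. Wnt10b, known for favouring osteoblasts over adipocytes, reached 3.35 in cluster 3 and 2.94 in cluster 2, which did not differ beyond counting error, and was lowest in cluster 5 at 0.367 by total count and in cluster 4 with TMM. Wnt16 reached 2.49 in cluster 4 and 2.35 in cluster 7, also within counting error, and was lowest in cluster 6 at 0.427 by total count and in cluster 1 with TMM. The other 4 ligands stayed below RPKM 2 in the sorted libraries. Wnt6 reached 0.906 in cluster 7 (with TMM 0.882 in cluster 5, its highest library, and 0.813 in cluster 7), Wnt10a 0.586 in cluster 1, Wnt3 0.507 in cluster 5 and Wnt2b 0.319 in cluster 2.

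The cores that TCF and LEF factors bind in DNA include CTTTGAA and CTTTGAT. These letters were sought on both strands in the 250 bases before RefSeq start sites (GRCm38.p6). Other forms of the core were not sought. A match is only a description of the letters. Of 32851 windows of all genes, 7.48% held a match, and 8.33% of 36 windows of 29 members did. The 3 windows with a match belonged to Wnt11, Wnt5b and Dkk1. The Wnt11 match began 51 bases before the start, and the one of Wnt5b 71 bases before an internal start of the gene. Both are shown 5′ to 3′ on the gene's strand because they belong to the ligand that was above RPKM 5 in every library and to a ligand with a 13.8-fold range between libraries, with the match in capitals. For Wnt11, the 222 bases are given that lie before the gene both in the deposited counts and in RefSeq, whose gene starts within the window.
Wnt11 upstream, chr7:98834862-98835083, plus strand: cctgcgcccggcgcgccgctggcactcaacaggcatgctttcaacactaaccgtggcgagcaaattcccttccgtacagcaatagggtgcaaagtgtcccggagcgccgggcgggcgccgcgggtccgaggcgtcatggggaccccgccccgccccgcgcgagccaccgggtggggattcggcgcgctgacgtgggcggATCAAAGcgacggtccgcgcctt
Wnt5b site, chr6:119449439-119449468, minus strand: agtaagtctctCTTTGATctgctccctgtc

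Among the receptors, Fzd1, Fzd7 and Fzd8 were highest in cluster 7 (Fzd7 in cluster 4 with TMM), Fzd2 and Lrp6 in cluster 4, Fzd4 in cluster 1 and Fzd9 in cluster 6. Frizzled proteins are the receptors that bind the ligands directly. Of the receptors above RPKM 2, the widest range was that of Fzd9 (ENSMUSG00000049551, chr5:135248938-135251230, minus strand), whose loss in mice is known to reduce bone formation. Its RPKM was 6.47 in C1, 16.0 in C2, 4.84 in C3, 23.0 in C4, 3.23 in C5, 28.8 in C6, 7.54 in C7 and 3.85 in the input. Clusters 6, 4 and 2 were high, with cluster 6 above cluster 4 by 1.25-fold (95% exact interval 1.17 to 1.33), and the other 4 sorted libraries were at 7.54 or less.

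The gene Fzd1 (ENSMUSG00000044674, chr5:4753839-4758035, minus strand) had RPKM 15.3 in C1, 5.34 in C2, 5.56 in C3, 19.0 in C4, 9.99 in C5, 4.62 in C6, 24.7 in C7 and 7.36 in the input. Clusters 7, 4 and 1 were high, and the lowest library was cluster 6 by total count and cluster 2 with TMM. For Fzd4 (ENSMUSG00000049791, chr7:89404355-89413134, plus strand), which also serves as the receptor of norrin in vessels, RPKM was 6.23 in C1, 1.06 in C2, 1.64 in C3, 4.42 in C4, 1.83 in C5, 0.724 in C6, 3.80 in C7 and 3.73 in the input. Here too clusters 1, 4 and 7 were the highest, in another order, and cluster 1 exceeded cluster 4 by 1.41-fold (95% exact interval 1.29 to 1.54). Fzd8 (ENSMUSG00000036904) had RPKM 15.0 in C1, 5.73 in C2, 13.1 in C3, 15.9 in C4, 9.27 in C5, 8.76 in C6, 24.4 in C7 and 1.62 in the input. All sorted libraries were above the input, with cluster 7 the highest and cluster 2 the lowest.

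Fzd2 ranged from 1.28 in cluster 6 to 7.09 in cluster 4. Lrp6, a co-receptor of the canonical branch, had its lowest level of 2.39 in cluster 6 and its highest of 6.496 in cluster 4, the narrowest range of the receptors above RPKM 2. Fzd7 was 8.28 in cluster 7, 8.11 in cluster 4 and 8.02 in cluster 1, with neighbours within counting error. Their order turned with TMM, where cluster 4 had 7.92, cluster 7 had 7.43 and cluster 1 had 6.69. With TMM, cluster 4 exceeded cluster 1 beyond counting error by 1.18-fold (1.08 to 1.29). The lowest library of Fzd7 was cluster 6 by total count at 2.91 and cluster 2 with TMM. The other 6 receptors did not reach RPKM 2 in a sorted library. Fzd5 reached 1.94 in cluster 1, Fzd6 1.69 in cluster 7, Lrp4 1.14 in cluster 5, Lrp5 1.01 in cluster 4, Fzd3 0.959 in cluster 4 and Fzd10 0.700 in cluster 6. With TMM the highest library was cluster 4 for Fzd5 at 1.78, cluster 3 for Fzd6 at 1.53, cluster 6 for Lrp5 at 1.05 and cluster 5 for Fzd3 at 1.08. The co-receptor Lrp5 was thus below Lrp6 in each sorted library.

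Among the antagonists, Sfrp1, Sfrp2, Sfrp5, Wif1 and Dkk2 were highest in cluster 4, Frzb, Dkk1 and Notum in cluster 6, Sfrp4 in cluster 3 and Dkk3 in cluster 7. The gene Sfrp2 (ENSMUSG00000027996, chr3:83766321-83774316, plus strand) encodes a secreted Frizzled-related protein, which resembles the ligand-binding part of a Frizzled receptor. Its RPKM was 125 in C1, 46.3 in C2, 14.9 in C3, 299 in C4, 103 in C5, 1.41 in C6, 179 in C7 and 57.4 in the input. Cluster 4 exceeded cluster 7 by 1.67-fold (95% exact interval 1.63 to 1.71) and cluster 6 by 212-fold (95% exact interval 174 to 262). This was the widest range of the set in RPKM + 1, at a ratio of 125.

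The most abundant member was Sfrp4 (ENSMUSG00000021319, chr13:19623175-19632821, plus strand), another secreted Frizzled-related protein, whose loss in humans causes thin cortical bone. Its RPKM was 393 in C1, 91.0 in C2, 1308 in C3, 340.3 in C4, 95.1 in C5, 17.2 in C6, 349 in C7 and 233 in the input. Cluster 3 stood alone, above cluster 1 by 3.33-fold (95% exact interval 3.27 to 3.39), while clusters 1, 4 and 7 lay closer together. Clusters 5 and 2 did not differ beyond counting error by total count, whereas with TMM they had 118 and 85.04, at a ratio of 1.39 (1.32 to 1.46). Cluster 6 was the lowest for both Sfrp2 and Sfrp4, also with TMM.

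Another order was seen for Wif1 (ENSMUSG00000020218, chr10:121033960-121100650, plus strand), Wnt inhibitory factor 1, a binding protein of the ligands found in cartilage and osteoblasts. Its RPKM was 23.6 in C1, 91.1 in C2, 69.1 in C3, 374 in C4, 62.9 in C5, 278 in C6, 85.7 in C7 and 82.5 in the input. Clusters 4 and 6 were high, cluster 4 exceeding cluster 6 by 1.34-fold (95% exact interval 1.32 to 1.37), and cluster 1 was the lowest. For Sfrp5 (ENSMUSG00000018822, chr19:42197971-42202252, minus strand), RPKM was 0 in C1, 7.47 in C2, 1.13 in C3, 16.0 in C4, 2.01 in C5, 8.19 in C6, 1.55 in C7 and 0.209 in the input. Clusters 4, 6 and 2 were high. No read was counted in cluster 1, so that the level in cluster 4 was at least 246-fold higher when cluster 1 is set to the 3 reads per library that a count of 0 allows. Clusters 6 and 2 did not differ beyond counting error by total count, whereas with TMM they had 9.81 and 6.98, at a ratio of 1.41 (1.22 to 1.61).

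The regions upstream of Sfrp5 and Wif1 are printed because both genes had their 3 highest levels in clusters 2, 4 and 6, and the site of Dkk1 because it is the third match to the letters above. Neither the Sfrp5 nor the Wif1 window holds these letters. The match of Dkk1, in capitals, began 117 bases before the RefSeq start and lies within the gene as the deposited counts place it.
Sfrp5 upstream, chr19:42202253-42202502, minus strand: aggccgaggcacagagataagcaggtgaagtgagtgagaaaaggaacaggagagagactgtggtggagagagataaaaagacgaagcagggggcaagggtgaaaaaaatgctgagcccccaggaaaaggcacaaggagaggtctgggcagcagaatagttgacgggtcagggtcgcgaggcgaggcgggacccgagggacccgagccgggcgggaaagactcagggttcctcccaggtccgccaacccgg
Wif1 upstream, chr10:121033754-121033959, plus strand: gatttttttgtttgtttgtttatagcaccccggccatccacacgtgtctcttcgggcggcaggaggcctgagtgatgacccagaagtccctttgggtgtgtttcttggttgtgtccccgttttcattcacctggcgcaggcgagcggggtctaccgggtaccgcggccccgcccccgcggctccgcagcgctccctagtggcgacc
Dkk1 site, chr19:30549595-30549624, minus strand: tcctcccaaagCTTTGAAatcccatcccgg

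Frzb, a secreted Frizzled-related protein known from cartilage, was 30.9 in cluster 6, 26.9 in cluster 4 and 12.4 in cluster 2, and at most 5.19 in the other sorted libraries, with the lowest level of 1.48 in cluster 1. Sfrp1 was 17.1 in cluster 4, 10.3 in cluster 1 and 8.905 in cluster 7, and lowest in cluster 6 at 0.708. Dkk1, the classic inhibitor of LRP5 and LRP6, was 6.53 in cluster 6, 4.21 in cluster 3 and 2.52 in cluster 2, with 1 read in cluster 1. These 3 genes therefore followed 3 different orders of the libraries. Dkk2, which can inhibit or activate depending on its partner, was 13.1 in cluster 4 and 0.196 in cluster 6, its lowest library. Dkk3, a divergent member of the Dickkopf family, was above 20 in every library, from 22.9 in cluster 6 to 135 in cluster 7. Notum ranged from 1.99 in cluster 1 to 11.99 in cluster 6. Its exons overlap those of 2 genes on the opposite strand, which share 29.4% and 8.72% of its exon bases. If strand was not used, reads of either could be counted for the other or for neither. Sost, the gene of sclerostin and a marker of osteocytes, had no more than 15 reads in a library and a highest RPKM of 0.229 in cluster 6 by total count and of 0.281 in cluster 5 with TMM.

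**Figure D2:**
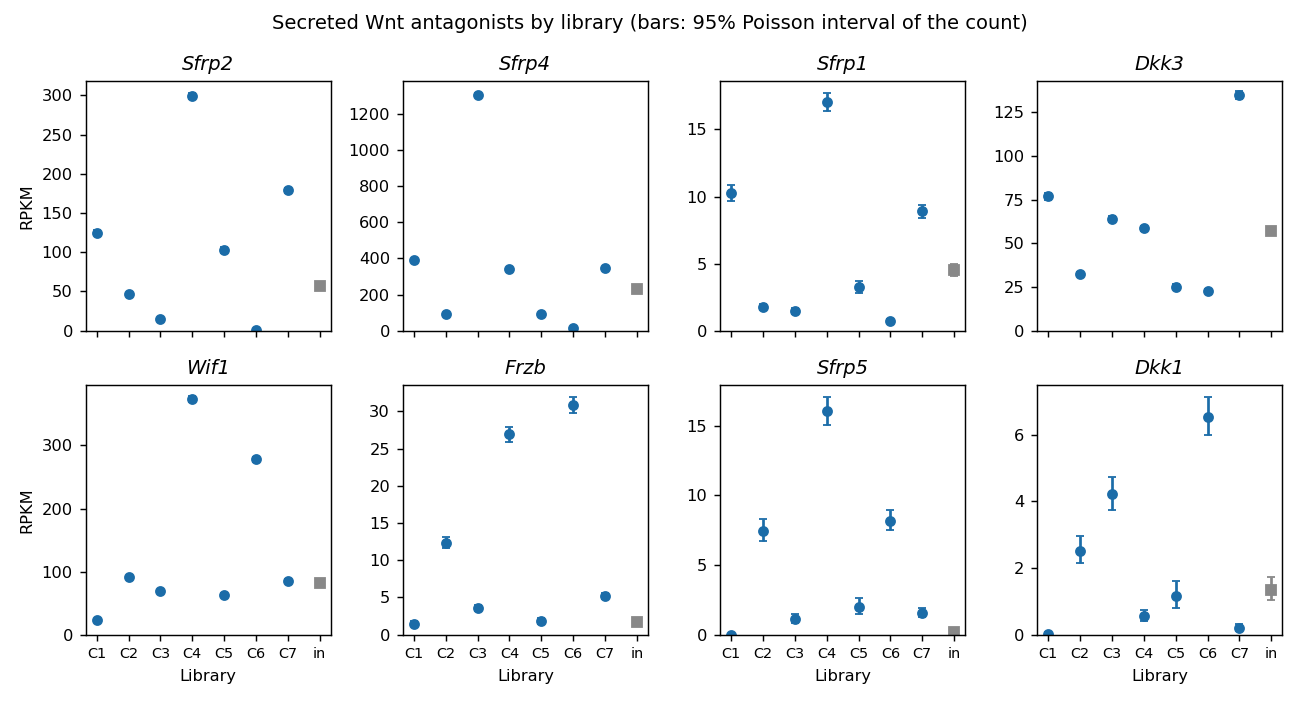
RPKM (linear axes from 0) of 8 antagonists in clusters 1 to 7 and the input (in, grey squares), 1 library each, with bars for the 95% Poisson interval of the count. Cluster 4 is highest for Sfrp2, Sfrp1, Wif1 and Sfrp5, cluster 3 for Sfrp4, cluster 7 for Dkk3 and cluster 6 for Frzb and Dkk1.

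In the R-spondin axis, Rspo1 and Lgr5 were highest in cluster 7, Rspo2 in cluster 3, Rspo3 in cluster 2, Lgr6 in cluster 6 and Lgr4 in cluster 3 (cluster 6 with TMM). The summed RPKM of the 6 genes was 12.5 in C1, 18.7 in C2, 17.8 in C3, 18.03 in C4, 6.80 in C5, 20.3 in C6, 12.6 in C7 and 16.7 in the input. The gene Lgr6 (ENSMUSG00000042793, chr1:134983301-135105276, minus strand) encodes an R-spondin receptor. Its RPKM was 0.247 in C1, 3.49 in C2, 4.85 in C3, 5.11 in C4, 0.796 in C5, 10.53 in C6, 0.883 in C7 and 4.99 in the input. Cluster 6 exceeded cluster 4 by 2.06-fold (95% exact interval 1.92 to 2.21), clusters 4 and 3 did not differ beyond counting error, and cluster 1 was the lowest.

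The ligand gene Rspo3 (ENSMUSG00000019880, chr10:29452416-29535867, minus strand) had RPKM 1.54 in C1, 10.4 in C2, 0.263 in C3, 4.39 in C4, 1.11 in C5, 3.52 in C6, 1.48 in C7 and 0.979 in the input. Cluster 2 was the highest, above cluster 4 by 2.36-fold (95% exact interval 2.10 to 2.66), and cluster 3 the lowest with 22 reads. The gene Rspo2 (ENSMUSG00000051920, chr15:43020811-43170818, minus strand) had its highest level in the library where Rspo3 was lowest. Its RPKM was 3.77 in C1, 0.285 in C2, 5.54 in C3, 1.43 in C4, 0.422 in C5, 0.142 in C6, 2.24 in C7 and 2.31 in the input. Clusters 3, 1 and 7 were high and clusters 6 and 2 low. For Lgr5 (ENSMUSG00000020140, chr10:115450311-115587780, minus strand), an R-spondin receptor and stem cell marker of several epithelia, RPKM was 2.52 in C1, 0.496 in C2, 0.151 in C3, 2.27 in C4, 1.10 in C5, 0.323 in C6, 2.92 in C7 and 3.18 in the input. Clusters 7, 1 and 4 were the highest sorted libraries and cluster 3 was the lowest. The input was above these 3 by total count, and below them at 1.99 with TMM factors over all 8 libraries, where they had 2.82, 2.28 and 2.32. Rspo1 was rarer, from 0.183 in cluster 2 to 2.10 in cluster 7, which did not exceed cluster 4 beyond counting error. Lgr4 varied least, from 1.9997 in cluster 5 to 5.88 in cluster 3, and its order turned with TMM, where cluster 6 had 6.73 and cluster 3 had 5.79.

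The targets behaved unequally. The gene Axin2 (ENSMUSG00000000142, chr11:108920349-108950783, plus strand), a negative regulator that is induced by the pathway in most cells, had RPKM 0.308 in C1, 0.401 in C2, 0.235 in C3, 0.290 in C4, 0.778 in C5, 0.149 in C6, 0.251 in C7 and 0.468 in the input. By total count it did not reach 1 in any library. It was highest in cluster 5 with 55 reads, where TMM factors over the 8 libraries gave 1.05. The gene Lef1 (ENSMUSG00000027985, chr3:131110471-131224356, plus strand), a nuclear partner of beta-catenin that is also used by lymphocytes, had RPKM 0.635 in C1, 1.94 in C2, 0.458 in C3, 0.986 in C4, 0.745 in C5, 1.48 in C6, 0.743 in C7 and 2.90 in the input. Cluster 2 was the highest sorted library. The input was above all sorted libraries by total count, whereas with TMM factors over the 8 libraries it had 1.82, below cluster 2 at 1.95 and cluster 6 at 1.91. The gene Tcf7 (ENSMUSG00000000782, chr11:52252371-52283014, minus strand) encodes another partner of beta-catenin, known for its role in T cells. Its RPKM was 1.53 in C1, 5.26 in C2, 9.02 in C3, 2.79 in C4, 3.62 in C5, 12.5 in C6, 2.51 in C7 and 0.321 in the input. All sorted libraries were above the input, cluster 6 exceeded cluster 3 by 1.39-fold (95% exact interval 1.26 to 1.53), and cluster 1 was the lowest. The 6 T cell markers were highest in the input, where Tcf7 was lowest, and their summed RPKM was 2.31 in C1, 3.76 in C2, 0.770 in C3, 2.07 in C4, 1.63 in C5, 2.18 in C6, 3.605 in C7 and 9.54 in the input, with Trac as the most abundant and Cd8a at 0.124 or less in the sorted libraries. The part of T cells in the level of Tcf7 was not tested. The sum of 6 B cell markers, led by Cd79b and with 4 of 6 above RPKM 2, was 62.5 in C1, 68.2 in C2, 31.4 in C3, 54.8 in C4, 47.5 in C5, 74.9 in C6, 103 in C7 and 241 in the input.

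Taking the library with the highest level for each of the 33 genes, cluster 4 held 9, cluster 6 held 8, cluster 7 held 7, cluster 3 held 6, cluster 2 held 2, cluster 1 held 1 and cluster 5 held 0. Over the 12360 genes above RPKM 2, the shares were 8.95% in C4, 7.1% in C6, 25.3% in C7, 9.85% in C3, 22.8% in C2, 21.3% in C1 and 4.73% in C5. With TMM, 31 of the 33 genes kept their highest library, and of the 32 genes above RPKM 2 cluster 4 held 10, cluster 6 held 9, clusters 3 and 7 held 5 each, cluster 2 held 2, cluster 1 held 1 and cluster 5 held 0. The shares of all genes were then 11.8% in C4, 20.3% in C6, 12.7% in C3, 16.3% in C7, 19.5% in C2, 8.69% in C1 and 10.7% in C5. Cluster 6 was also the lowest library of 14 of the 33 genes, against 25.5% of all genes, and of 11 of 32 with TMM, against 17.3%. Cluster 1 was the lowest library of 8 of the 33 genes, against 3.82% of all genes, and of 10 of 32 with TMM, against 9.44%. Cluster 5 was the lowest for 6 of 33, against 46.3%, and for 4 of 32 with TMM, against 28.3%. Clusters 4 and 7 were the lowest for 0, against 4.401% and 4.59%, and with TMM for 1 and 0, against 6.76% and 11.3%.

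**Figure D3:**
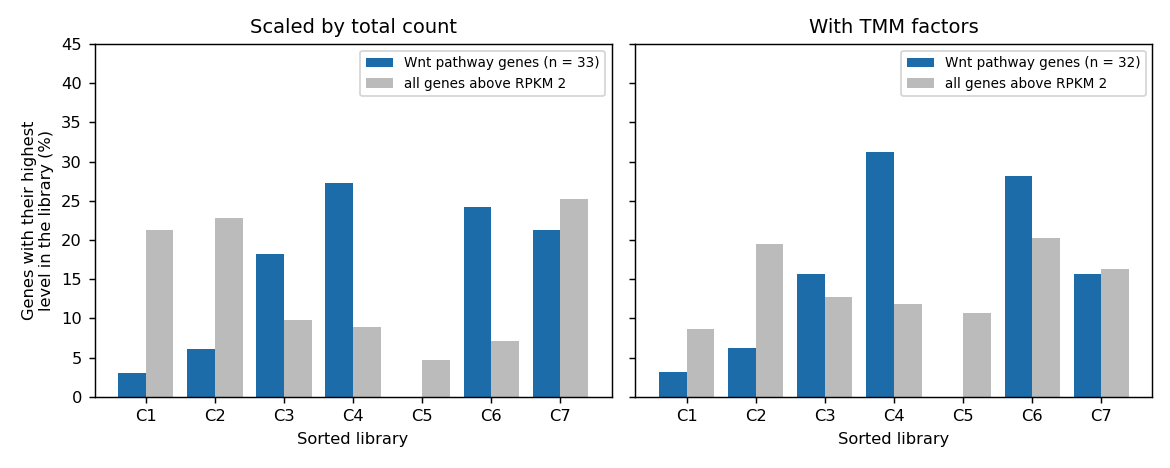
Percentage of genes with their highest level in each sorted library, for the Wnt pathway genes (blue) and all genes above RPKM 2 (grey), scaled by total count (left, n = 33) and with TMM factors (right, n = 32). The blue bars of cluster 4 are 27.3% and 31.3%, beside grey bars of 8.95% and 11.8%.

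By the definition of RPKM above 2 and more than 2-fold in RPKM + 1 over each of the other 6 libraries, 5 of the 33 genes were specific to 1 sorted library, beside 5.4% of all genes above RPKM 2. They were Wnt2 and Sfrp4 in cluster 3, Wnt4 and Rspo3 in cluster 2 and Dkk2 in cluster 4. With TMM, 5 genes were called, beside 5.88% of all genes, of which Wnt2, Sfrp4 and Rspo3 were also called by total count, while Wnt5b and Lgr6 in cluster 6 took the place of Wnt4 and Dkk2. Without the cluster 5 library the same 5 genes as by total count were called, beside 4.21%.

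The 3 highest libraries of each gene were then compared, a description chosen after the values had been seen. Clusters 1, 4 and 7 were the 3 highest for 11 of the 33 genes, beside 14.5% of all genes above RPKM 2. These were Wnt5a, the receptors Fzd1, Fzd2, Fzd4, Fzd7, Fzd8 and Lrp6, the antagonists Sfrp1 and Sfrp2, and Rspo1 and Lgr5. With TMM, 7 genes had this pattern, beside 6.56% of all genes above RPKM 2, since Wnt5a, Fzd8, Sfrp2 and Rspo1 left it. Clusters 2, 4 and 6 were the 3 highest for 6 genes, beside 2.94%, namely Fzd9, Sfrp5, Frzb, Wif1, Notum and Rspo3, and with TMM for 5, beside 4.57%, without Notum. Clusters 2, 3 and 6 were the 3 highest for 5 genes, beside 2.99%, namely Wnt4, Wnt10b, Dkk1, Lgr4 and Tcf7, and for the same 5 with TMM, beside 5.65%.

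**Figure D4:**
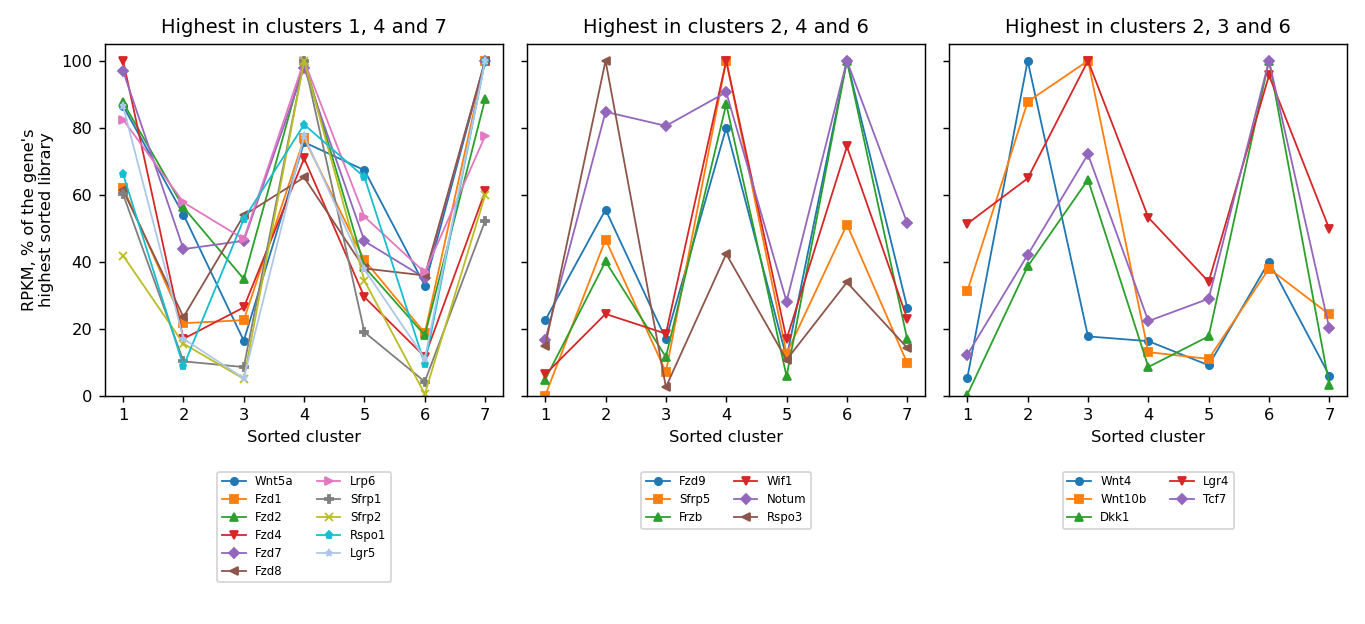
RPKM of each gene as a percentage of its highest sorted library (vertical axis) in clusters 1 to 7 (horizontal axis), for the 11, 6 and 5 genes whose 3 highest libraries were clusters 1, 4 and 7 (left), 2, 4 and 6 (middle) and 2, 3 and 6 (right), scaled by total count. The lines join values of 1 gene and mark no order of the clusters, and Sfrp2 falls from 100% in cluster 4 to near 0 in cluster 6.

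Markers of other cell types were high in some of the same libraries as these genes, and their part in the patterns was not tested. The chondrocyte markers Acan, Col2a1, Sox9 and Col10a1 all passed RPKM 2, none was at 0, Col2a1 was the most abundant, and their sum was 266 in C1, 9658 in C2, 197 in C3, 3232 in C4, 195.03 in C5, 11426 in C6, 258 in C7 and 142 in the input. It was highest in clusters 6, 2 and 4, the libraries in which Fzd9, Sfrp5 and Frzb were high, and each of the 4 markers had its 3 highest levels there. The sum of the 8 osteoblast markers, all above RPKM 2 and led by Col1a1, was 4855 in C1, 11034 in C2, 32588 in C3, 4426 in C4, 14556 in C5, 41040.3 in C6, 5392 in C7 and 1665 in the input. The 4 osteocyte markers, of which 2 passed RPKM 2 and Dmp1 was the most abundant, summed to 3.95 in C1, 40.5 in C2, 208 in C3, 12.9 in C4, 40.7 in C5, 428 in C6, 12.2 in C7 and 3.20 in the input, with Fgf23 at 0 reads in clusters 2 and 5. Both sums were highest in clusters 6 and 3, which were also the highest libraries of Dkk1, Lgr4 and Tcf7. For the osteoblast list, this rested on Bglap, Bglap2 and Col1a1, while Ibsp, Alpl, Spp1, Runx2 and Sp7 were higher in cluster 2, 4 or 7 than in cluster 3 by total count, and with TMM these genes except Sp7. For the osteocyte list, it rested on Dmp1, and Phex was also highest in clusters 6 and 3, while Mepe and Fgf23 were higher in cluster 4 than in cluster 3. Wnt4 and Wnt10b shared the pattern of Dkk1, Lgr4 and Tcf7 but had other highest libraries. These were clusters 2 and 6 for Wnt4 and clusters 3 and 2 for Wnt10b.

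The 5 markers of fibroblast progenitors, all above RPKM 2 and led by Ly6a, which is itself a sort marker, summed to 1129 in C1, 115 in C2, 1217 in C3, 800.3 in C4, 157 in C5, 19.999 in C6, 459.5 in C7 and 731 in the input. Clusters 3, 1, 4 and 7 were high and cluster 6 low, as for Sfrp4, but of the 5 markers only Ly6a was highest in cluster 3. The other 4 were highest in cluster 1 by total count, and with TMM Pdgfra in cluster 7. The 5 markers of leptin receptor stroma, 4 of them above RPKM 2 and Cxcl12 the most abundant, summed to 47.0 in C1, 18.05 in C2, 23.2 in C3, 186 in C4, 57.8 in C5, 9.82 in C6, 69.5 in C7 and 44.7 in the input. The sum was highest in cluster 4, as were Sfrp1 and Sfrp2. Cxcl12 and Adipoq were highest there, while Lepr itself was highest in cluster 7, at 12.4 against 10.9 in cluster 4. Kitl and Ebf3 were highest in cluster 1 by total count and in cluster 4 with TMM, where Kitl had 4.47 in cluster 1 and 4.64 in cluster 4, and Ebf3 1.14 and 1.15. Erythroid markers, all 6 above RPKM 2 and led by Hba-a1, summed to 14562 in C1, 13322 in C2, 7328 in C3, 2259.7 in C4, 68504 in C5, 1591 in C6, 7411 in C7 and 689 in the input, with the highest level in cluster 5. Pericyte markers, 3 of 4 above RPKM 2 and led by Acta2, had their highest sum of 92.7 in cluster 7 and their lowest of 6.25 in cluster 6, although Rgs5, Myh11 and Notch3 were each highest in another library than cluster 7. Endothelial markers, 2 of 4 above RPKM 2, summed to at most 8.72 in the sorted libraries, and macrophage markers, all 4 above RPKM 2, to at most 42.6.

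**Figure D5:**
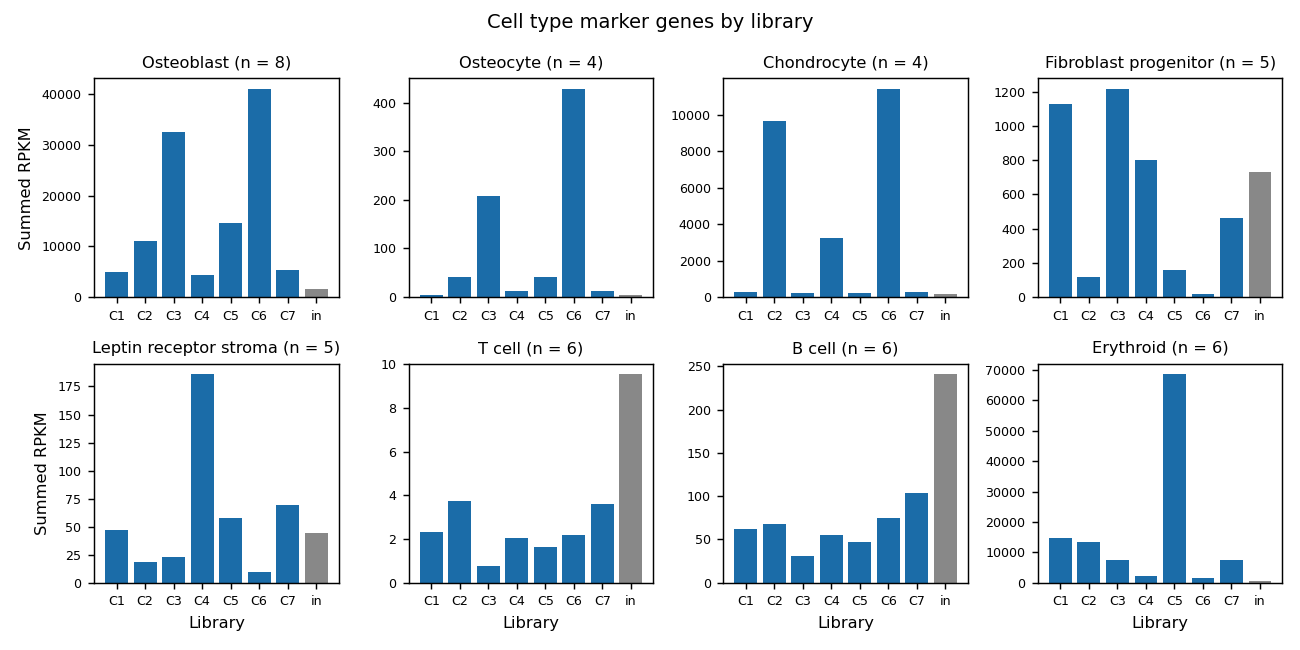
Summed RPKM (linear axes from 0) of 8 lists of marker genes in clusters 1 to 7 and the input (in, grey), 1 library each, with the number of genes as n. The sum of the chondrocyte markers is highest in clusters 6, 2 and 4, the sums of the osteoblast and osteocyte markers, carried by a few genes of each list, in clusters 6 and 3, and that of the erythroid markers in cluster 5.

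The input library was compared with the sorted libraries for the 36 members above RPKM 2 in any of the 8 libraries. The input was more than 2-fold above every sorted library in RPKM + 1 for 0 of them, beside 31.2% of the 19088 genes above RPKM 2, and more than 2-fold below for 1, beside 0.472%. These calls are by total count. They are not given here with TMM factors over the 8 libraries, which lower the level of the input. The member below was Fzd8, with 1.62 in the input and 5.73 in its lowest sorted library. By total count, the input lay within the range of the sorted libraries for 26 of the 36, beside 35.97% of all genes above RPKM 2, and with TMM factors over the 8 libraries for 20 of 33, beside 45.9%. The input differed from the sorted libraries in general, since 41.3% of the 12793 genes without any read in the sorted libraries had reads in it.

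Other genes of the pathway were taken as a list of 63. Of these, 45 had RPKM above 2 in a sorted library, 32 varied more than 2-fold in RPKM + 1, beside 70.6% of all genes above RPKM 2, and 0 were specific to 1 library, beside 5.4%. Both secretion genes, Porcn and Wls, were among those that varied, and Wls, the carrier of the ligands, ranged from 10.1 to 29.7. None of 6 further ligands passed RPKM 2. Of 20 co-receptors and modulators, 13 passed it and 11 varied. Of 21 cytoplasmic and nuclear genes, 19 passed it and 9 varied, and Ctnnb1, the gene of beta-catenin, ranged from 28.6 to 73.2 with its highest level in cluster 6. Of 7 planar polarity genes, 5 passed it and 4 varied. Of 7 further targets, 6 passed it and 6 varied, among them Myc, with 44.9 in cluster 5 as its lowest and 174 in cluster 7 as its highest level by total count, and with 52.1 in cluster 2 and 158 in cluster 4 as these with TMM.

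The 4 genes of this list with the widest range in RPKM + 1 were modulators. Gpc3, a glypican of the cell surface, had RPKM 33.4 in C1, 6.04 in C2, 15.7 in C3, 81.1 in C4, 13.7 in C5, 1.12 in C6, 57.4 in C7 and 15.5 in the input. Clusters 4, 7 and 1 were high and cluster 6 low. The R-spondin gene Rspo4 had RPKM 0.680 in C1, 13.8 in C2, 0.731 in C3, 0.557 in C4, 0 in C5, 19.9 in C6, 0.444 in C7 and 0.879 in the input. Clusters 6 and 2 stood apart from the other libraries, and no read was counted in cluster 5. Igfbp4, a binding protein of insulin-like growth factors that also inhibits Wnt signalling, ranged from 13.5 in cluster 6 to 236 in cluster 4. Cthrc1, a secreted collagen-related protein, ranged from 49.99 in cluster 1 to 222 in cluster 6.

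Exons of Sfrp2, Notum, Lef1, Rspo3, Fzd5, Wnt11, Wnt5a, Wnt7b and Axin2 overlap those of genes on the opposite strand, whose highest count in a library was 81, for a gene beside Notum. The use of strand in the counting is not given in the sources used here, and reads of such pairs cannot be told apart without it.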

How the data were processed

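RNA-seq of 7 sorted bone marrow populations and 1 input library was analysed. Reads counted per Ensembl gene were deposited by the authors as raw counts, without normalization, with the exon length of each gene. The Methods describe polyA selection, trimming, alignment by TopHat2 to mm9 in Partek Flow 2.2 and RPKM, whereas the genes in the files have GRCm38 positions. The counting tool and its strand setting are not given in the sources used here. RPKM was computed from counts, exon length and the total count on genes, and thresholds were RPKM above 2 and a ratio above 2 in RPKM + 1. The name table gave 32464 of 49315 genes a symbol. The 4 marker or ribosomal symbols missing from it were matched by RefSeq position or synonym.

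Members and lists were chosen with earlier results of these data known. Members above RPKM 2 were named with their highest and lowest library, and values in all libraries were given for up to 4 genes per role with at least 50 reads, by the ratio of highest to lowest RPKM + 1, and for Axin2, Lef1 and Tcf7. Members below RPKM 2 were named with their highest level. Intervals were exact Poisson intervals of a count and exact binomial intervals of a ratio, at 95%, and a count of 0 was set to 3 reads. No test was used, because a group was 1 library. edgeR and DESeq2 gave scaling factors only. The calculations were tested on simulated data. Alternatives comprised both scalings, a total without Rn18s-rs5, Lars2 and mmu-mir-689-2, RPKM above 1 or no filter, RPKM + 0.1 and omission of cluster 5. Upstream sequences came from RefSeq GRCm38.p6. The tools were edgeR 4.0.16 and DESeq2 1.42.0 in R 4.3.3, and scipy 1.17.1, pandas 2.3.3, numpy 2.4.6 and matplotlib 3.10.9 in Python 3.11.15.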

Additional observations from a re-analysis of the deposited data

How the results depend on the processing

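Of 254 values recomputed under the alternatives, 185 moved by less than their counting interval or, for counts, by less than 1.5 times, 65 moved more and 4 reversed. Reversed were the log2 difference of Fzd7 between clusters 7 and 4 (-0.081 with TMM, -0.088 with DESeq2 size factors, 0.03 by total count) and that of Lgr4 between clusters 3 and 6 (-0.19, -0.22 and 0.06). The number of members highest in cluster 5, 0 by total count, was 1 with DESeq2 and 1 without Rn18s-rs5, Lars2 and mmu-mir-689-2. The share of all genes highest there was 4.73% by total count, 13.8% with DESeq2 and 15.4% without the 3 loci. Cluster 7 held 4 members with DESeq2 in place of 7, beside 14.5% of all genes in place of 25.3%. With other filters, cluster 5 held 1 member with RPKM above 1 and 3 without a filter. Cluster 1 held 2 with RPKM above 1 and 3 without a filter in place of 1, and cluster 2 held 4 without a filter in place of 2. No share of all genes is given here for the counts with other filters, so they are not read as a result about the members. The log2 ratio of the ligand sum between clusters 3 and 5 was 1.92 by total count, 1.59 with TMM, 1.45 with DESeq2 and 1.33 without the 3 loci. For the receptor sum between clusters 4 and 5 it was 1.23, 0.88, 0.75 and 0.62 in this order. For the antagonist sum between clusters 3 and 2 it was 2.32, with 2.39 by TMM and 2.18 without the 3 loci. For the R-spondin sum between clusters 6 and 5 it was 1.58, with 0.98 without the 3 loci. For the target sum between clusters 6 and 1 it was 2.52, with 3.04 by TMM and 3.05 by DESeq2. With RPKM + 0.1, the input was above every sorted library for 1 member in place of 0 and below for 2 in place of 1. No share of all genes is given here for RPKM + 0.1 either, so these counts are not read as a result about the members. The cause of these changes was not tested. No paired analysis was possible because no group had a second library, and for the same reason no replicate could be left out. Depth limits the members with few reads, such as Sost and Wnt3.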
